A study of Mus musculus with 69 samples.

Results

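The Myc, Max and Mxd network was followed in mosaic mouse gastruloids through its 10 genes, Myc, Mycn, Mycl, Max, Mnt, Mga, Mxd1, Mxd3, Mxd4 and Mxi1. These were the rows of the count table that carried the symbols, 10 of 55367 symbols in all, and each had enough counts to be tested in every comparison. The table holds bulk RNA sequencing counts of 69 libraries, 3 replicates in each of 23 conditions, which the study made to compare cells that compete during early development. The populations were 3 clones of E14Tg2A mouse embryonic stem (mES) cells, each the progeny of a single cell. WT–mCherry cells are wild type for Trp53 and carry H2B–mCherry behind the EF1α promoter. WT–emiRFP cells are wild type and carry H2B–emiRFP670 behind the CAG promoter. The p53KO–emiRFP cells are a daughter clone of WT–emiRFP cells with a homozygous frameshift in Trp53, chosen after exposure to Nutlin-3a, a compound that stabilizes p53. The clones were sequenced as mES cells at 0 h, and then as cells sorted at 48, 72, 96, 120 and 144 h from mosaics of WT + WT, seeded with 150 WT–mCherry and 150 WT–emiRFP cells, and of WT + p53KO, seeded with 150 WT–mCherry and 25 p53KO–emiRFP cells. All gastruloids received the Wnt pathway activator ChIR from 48 h. Because each population is 1 clone, a difference between genotypes here is also a difference between clones.

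Myc proteins bind DNA only as partners of Max, at E-boxes, and recruit acetyltransferases and elongation factors to raise the output of genes for growth, ribosome production and metabolism. Mxd proteins, Mnt and Mga pair with Max at the same sites and recruit corepressors, so that they work against Myc. In the early mouse embryo Myc and Mycn sustain the growth of pluripotent cells, and cells with less Myc than their neighbours are known to be lost by cell competition. Mycl, the third paralogue, is best known from neural and lung cells, and Mga is also a subunit of PRC1.6, a Polycomb complex that holds germline genes silent in stem cells.

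The genes lie on different chromosomes of GRCm38, apart from Mycn and Max, which share chromosome 12. Myc is at chr15:61985391-61990374 on the plus strand, Mycn at chr12:12936093-12941914 on the minus strand and Mycl at chr4:122995652-123002485 on the plus strand. Max is at chr12:76937269-76962201 on the minus strand, and Mxd4 at chr5:34173883-34187720 on the minus strand. Counts are of reads over a whole gene and do not tell its transcripts apart. Exons of Mxd3 share 105 bases with Prelid1 on the opposite strand, a gene with a median of 12584 counts per library, so reads of that stretch could be assigned to either gene and Mxd3 values are uncertain to that extent.

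The RefSeq promoters of the members (GRCm38.p6, 250 bases before to 50 after a transcript start) were searched on both strands for the E-box CACGTG that Myc–Max dimers bind, and for motifs of their regulators. Of the 10 members, 9 (all but Myc) had a promoter in the table, with 11 promoters between them. The E-box was in promoters of 3 members, Max, Mnt and Mxd4, and in 7.15% of all 32851 promoters. The GC box GGGCGG was in promoters of 8 members and in 35.7% of all promoters. CTTTGA, the core of a TCF/LEF site through which Wnt signals act, was in a promoter of 1 member, Mycn, and in 16% of all promoters. The STAT3 motif TTCCNGGAA was in promoters of 0 members and in 1.15% of all promoters. The stretches that hold the E-boxes and the TCF/LEF core are shown because Max and Mxd4 are partner and antagonist in the network and Mycn had the steepest fall of any member in the step that followed ChIR. Each is written 5′ to 3′ on the strand of its gene, with the motif in capitals. They are Max chr12:76962246-76962311, Mnt chr11:74830741-74830836, Mxd4 chr5:34187894-34187960 and Mycn chr12:12941837-12941909. In Mycn the core reads TCAAAG, since it lies on the other strand. A match in letters does not show that a factor binds there.
Max: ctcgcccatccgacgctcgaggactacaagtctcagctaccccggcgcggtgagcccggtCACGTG
Mnt: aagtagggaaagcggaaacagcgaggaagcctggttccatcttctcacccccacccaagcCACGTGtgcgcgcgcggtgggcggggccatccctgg
Mxd4: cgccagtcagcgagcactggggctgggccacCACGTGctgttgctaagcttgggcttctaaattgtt
Mycn: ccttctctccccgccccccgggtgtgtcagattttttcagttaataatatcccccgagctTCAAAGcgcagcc

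The libraries held 26722541 to 72981570 counts, with a median of 53098728. Values are normalized counts, that is counts divided by median-of-ratios size factors, and groups are given as the mean ± SD of 3 replicates from temporally separate experiments. Calls are at an adjusted p under 0.05 in edgeR's quasi-likelihood test across all tested genes. Trp53, the targeted gene, had 2484 ± 136 normalized counts in p53KO–emiRFP and 25497 ± 1924 in WT–emiRFP mES cells (SD, n = 3 each), and the log2 fold change between them was −3.58 to −3.14 over the 6 times. The populations also differed in markers of cell types. Summed over 7 naive pluripotency genes, WT–emiRFP cells at 144 h had 78906 to 92112 normalized counts per library and p53KO–emiRFP cells 13138 to 20024. Summed over 5 caudal epiblast genes the ranges were 700.7 to 827.5 and 14449 to 15651, and over 6 paraxial mesoderm genes 3718 to 5220 and 24642 to 31560, with Msgn1 and Hes7 under 10 counts in WT–emiRFP cells. In bulk RNA, fewer cells of a type and less RNA per cell cannot be told apart, and the part of cell makeup in the differences below was not tested.

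In mES cells Mycn was the most abundant member per length. On the scale of normalized counts per kb of exon, WT–emiRFP mES cells had a level of 3187 ± 115 for Mycn, 1472 ± 30.0 for Max, 1280 ± 43.7 for Myc, 1085 ± 424 for Mga and 871 ± 32.7 for Mnt (SD, n = 3 each). Mycl at 247 ± 27.8, Mxi1 at 235 ± 8.14 and Mxd3 at 225 ± 32.0 had levels that did not differ beyond their spread, and neither did Myc and Mga or Mga and Mnt. Mxd1 at 66.2 ± 2.36 and Mxd4 at 36.4 ± 7.13 were the least abundant, and repressor partners of the Mxd group therefore made up a small part of the network's RNA. The wide spread of Mga came from replicate 1 of WT–emiRFP mES cells, which had 9243 normalized counts against 19201 and 21483 in the other two. With the longest transcript as the length, Mycl moved below Mxi1 and Mxd3, at 285 against 318 and 306 counts per kb, and the rest of the order was kept.

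The 3 Myc genes changed places as gastruloids developed. Of the summed per-kb level of Myc, Mycn and Mycl in WT–emiRFP cells, Mycn made up 67.6% ± 1.46 at 0 h and 74.4% ± 0.554 at 48 h, but 48.8% ± 0.373 at 72 h (SD, n = 3 each). Mycl made up 5.25% ± 0.612 at 0 h and 30.4% ± 1.93 at 96 h, when it stood above Myc at 19.0% ± 0.803 (SD, n = 3 each). In p53KO–emiRFP cells at 144 h the shares were 23.3% ± 1.15 for Myc, 45.6% ± 0.961 for Mycn and 31.1% ± 1.36 for Mycl, against WT–emiRFP shares of 20.4% ± 1.37, 62.4% ± 3.10 and 17.2% ± 1.92 (SD, n = 3 each). Shares sum to the whole, so a larger share of Mycl need not mean less Mycn.

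**Figure D1:**
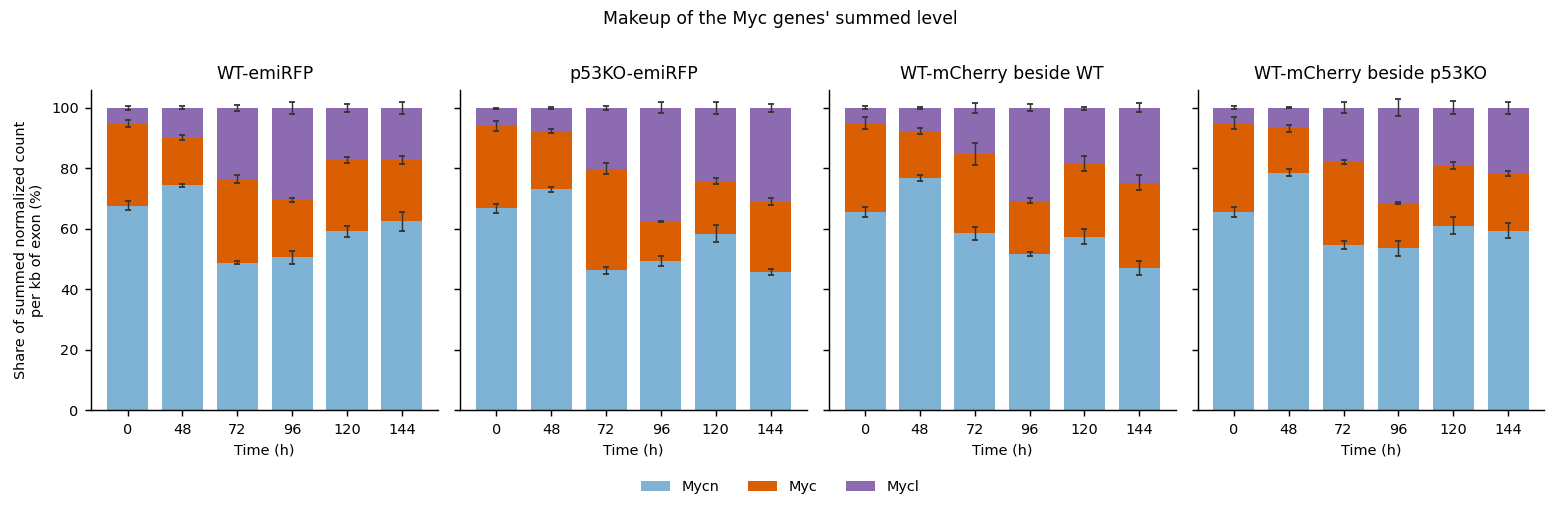
Share of Mycn, Myc and Mycl (%, stacked bars with the SD of each share over 3 replicates at its upper edge) in their summed normalized count per kb of exon, by time in hours and population, with WT–mCherry mES cells shown at 0 h in both WT–mCherry panels. Mycl grew from 5.25% at 0 h to 30.4% at 96 h in WT–emiRFP cells and reached 37.6% at 96 h in p53KO–emiRFP cells.

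Between consecutive times in WT cells, taken as the mean of the wild-type populations, members called at the steps to 48, 72, 96, 120 and 144 h were 8, 7, 9, 5 and 7 of 10. The background was high, with 70.3%, 66.9%, 58.6%, 56.8% and 55.4% of all tested genes called at these steps, so the counts are near it or above it by few genes. The sizes and directions differed by gene, as the plot of members by time shows, and each fold given for a step is the mean over the wild-type populations.

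Myc, the paralogue that most adult cells use, was highest in mES cells. WT–emiRFP cells had 3472, 3600 and 3363 normalized counts in replicates 1 to 3 at 0 h and 1949, 2204 and 1932 at 48 h. All 0 h libraries lay above all 48 h libraries, and WT cells as a whole fell by 0.74 on the log2 scale (standard error 0.06, adjusted p = 3.5e-16). At the steps to 72 and 120 h the log2 changes were −0.06 and 0.07 (adjusted p = 0.33 and 0.30). The rise to 96 h of 0.15 was not called without replicate 1 (adjusted p = 0.055) or replicate 3 (0.55), whereas the fall to 144 h, a log2 change of −0.52 (standard error 0.06, adjusted p = 1.3e-11) was called without each replicate. In WT–mCherry cells beside WT–emiRFP cells the 120 and 144 h counts overlapped, with means of 2611 and 2402. The means were 2283 and 1481 in WT–emiRFP cells, and 2277 and 1306 in WT–mCherry cells beside p53KO–emiRFP cells.

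Mycn, the paralogue of epiblast and neural tissue, rose to 48 h, fell to 72 h and rose again. WT–emiRFP cells had 11744, 11862 and 11417 normalized counts at 48 h. At 72 h they had 4526, 4454 and 3908, followed by 6960, 8973 and 8707 at 96 h, and these ranges did not overlap. In WT cells the log2 change was 0.35 to 48 h (standard error 0.05, adjusted p = 1.4e-08), −1.40 to 72 h (standard error 0.05, adjusted p = 1.6e-33) and 0.76 to 96 h (standard error 0.05, adjusted p = 1.2e-21). A smaller decrease of −0.14 to 120 h was not called without replicate 2 (adjusted p = 0.20), and to 144 h Mycn fell by 0.58 on the log2 scale (adjusted p = 2.2e-16).

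Mycl had a peak at 96 h. In WT–emiRFP cells it had 1127, 921.7 and 946.2 normalized counts at 0 h. The 96 h values were 5776, 6399 and 5901, and those of 144 h were 2154, 1735 and 1698, with no overlap among these times. WT cells rose by a log2 change of 0.80 to 48 h, 0.32 to 72 h and 1.55 to 96 h (standard error 0.05, adjusted p = 6.3e-32), and its log2 change was −1.08 to 120 h (adjusted p = 5.0e-25) and −0.29 to 144 h. Each of these 5 steps was called without each replicate. The populations went different ways to 144 h. Mean Mycl counts at 120 and 144 h were 2952 and 3152 in WT–mCherry cells beside WT–emiRFP cells, which did not fall. They were 2511 and 1862 in WT–emiRFP cells, and 3249 and 2229 in WT–mCherry cells beside p53KO–emiRFP cells.

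Mxd4, a repressor partner of Max that is typical of resting and differentiating cells, rose with Mycl. WT–emiRFP cells had 376.3, 288.4 and 260.3 normalized counts at 0 h. The 72 h values were 782.7, 729.3 and 782.0, and those of 96 h were 1322, 1430 and 1547, each above all earlier ones. The log2 change in WT cells was 0.02 to 48 h (adjusted p = 0.82), 0.71 to 72 h (standard error 0.07, adjusted p = 3.9e-14) and 1.10 to 96 h (standard error 0.06, adjusted p = 1.6e-22). To 120 and 144 h the log2 changes were −0.22 and −0.37. Mean Mxd4 counts at 120 and 144 h were 1033 and 1095 in WT–mCherry cells beside WT–emiRFP cells, which did not fall. They were 1041 and 621 in WT–emiRFP cells, and 1119 and 822 in WT–mCherry cells beside p53KO–emiRFP cells. Over the means of the 23 conditions, log2 normalized counts of Mxd4 correlated with those of Mycl at 0.83 and with those of Mxd3 at −0.92. The conditions share clones and time courses, and the values are descriptions only.

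Among the shared partners, Max fell to 48, 72 and 96 h, with log2 changes of −0.25, −0.21 and −0.15, and had changes of 0.05 and −0.05 after that (adjusted p = 0.11 at each). Its normalized counts spanned 3121 to 5644 over all 69 libraries, a narrow range beside the Myc genes. Mnt, the widely expressed Max partner that opposes Myc, fell to 48 and 72 h (−0.19 and −0.36) and rose at the 3 later steps (0.11, 0.17 and 0.12), of which the step to 96 h (adjusted p = 0.12) and that to 144 h (0.088) were not called without replicate 1. Mga fell by 0.29 to 72 h (adjusted p = 0.0030) and was called at no other step in this fit, with adjusted p = 0.017 at the step to 120 h when replicate number was a block, where 60.9% of all genes were called.

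Mxd1 and Mxi1, which rise when many cell types leave the cell cycle, were each lower at 48 h than at 0 h. Mxd1 fell by 0.79 on the log2 scale to 48 h (standard error 0.06, adjusted p = 4.1e-17) and rose by 0.31 to 96 h. Mxi1 fell to 48 and 72 h (−0.52 and −0.75) and rose at the later steps (0.32, 0.67 and 0.17), a course that ran with that of Mnt (correlation 0.87 over 23 condition means). Mxd3, which unlike the other Mxd genes is known from dividing cells, fell by 0.42 to 96 h and rose by 0.35 to 144 h. Its change of −0.22 to 48 h was not called without replicate 1 (adjusted p = 0.16).

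**Figure D2:**
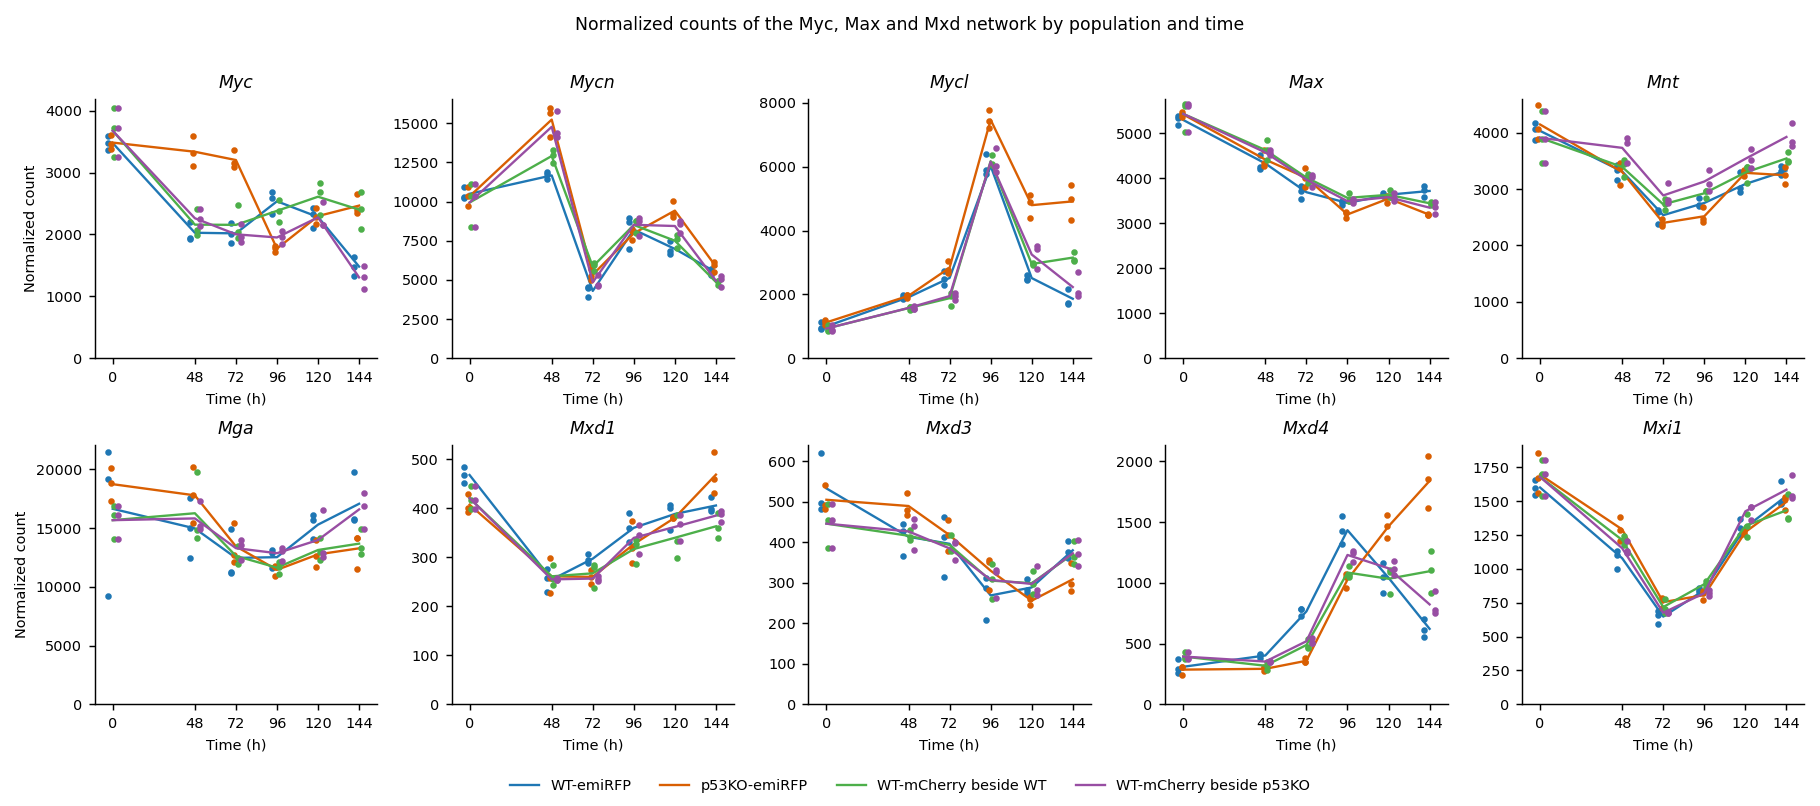
Normalized counts (y axis from 0, one panel per gene) against time in hours for the 4 sorted populations, with each replicate as a point and lines through the means of 3 replicates. Values at 0 h are of mES cells of the same clone, so both WT–mCherry lines start from the same 3 libraries. Myc was lower in all WT populations at 48 h than at 0 h, Mycn was lowest near 72 h or 144 h, and Mycl and Mxd4 rose to 96 h.

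The comparison of p53KO–emiRFP with WT–emiRFP cells asked whether the network differed with Trp53 between parent and daughter clone. As mES cells, 0 of 10 members were called by edgeR, with 0 at an unadjusted p under 0.05 and 0 by DESeq2, where 6.13% of all tested genes were called. In gastruloids 4, 4, 3, 4 and 6 members were called at 48, 72, 96, 120 and 144 h, against 22%, 29.1%, 23.3%, 51% and 65.3% of all tested genes. The shares of members were thus somewhat above the background at 48, 72 and 96 h and near or below it at 120 and 144 h. With replicate number as a block, 7 members were called at 96 h, where 38.6% of all genes were. The median log2 fold change of the members was between −0.12 and 0.14 over the gastruloid times, and that of all genes between −0.01 and 0.05.

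Myc was higher in p53KO–emiRFP cells at 48, 72 and 144 h and lower at 96 h. As mES cells the clones had 3486 ± 111 and 3478 ± 119 normalized counts (SD, n = 3 each). At 48 h p53KO–emiRFP cells had 3103, 3590 and 3322 normalized counts in replicates 1 to 3 and WT–emiRFP cells 1949, 2204 and 1932, a log2 fold change of 0.72 (standard error 0.08, adjusted p = 8.2e-06). At 72 h the counts were 3152, 3368 and 3092 against 2001, 2184 and 1869, a log2 fold change of 0.67 (standard error 0.09, adjusted p = 5.5e-05). The p53KO–emiRFP means of 3338 and 3204 lay nearer to their mES cell mean than the WT–emiRFP means of 2028 and 2018 did, and at both times every library of one clone lay above every library of the other. Summed over 4 formative pluripotency genes, the clones ranged from 209843 to 222283 and from 209115 to 217707 normalized counts per library at 48 h, and from 55659 to 62640 and from 35390 to 44839 at 72 h. The part of that difference in the Myc values was not tested.

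By 96 h the order had turned. The p53KO–emiRFP cells had 1725, 1781 and 1810 normalized counts of Myc and WT–emiRFP cells 2332, 2585 and 2694, a log2 fold change of −0.52 (standard error 0.07, adjusted p = 5.9e-05) with no overlap. At 120 h the counts of 2435, 2283 and 2177 overlapped with 2327, 2100 and 2423 (log2 fold change 0.01, standard error 0.09). At 144 h they were 2658, 2343 and 2400 against 1634, 1334 and 1474, a log2 fold change of 0.74 (standard error 0.11, adjusted p = 5.1e-05). The 4 calls for Myc remained without each replicate, with adjusted p up to 0.0059.

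Mycn was higher in p53KO–emiRFP cells at 48, 72 and 120 h. At 48 h the counts were 14096, 15651 and 15970 against 11744, 11862 and 11417 in WT–emiRFP cells (log2 fold change 0.38, standard error 0.06, adjusted p = 0.00012). At 72 h they were 5707, 5277 and 5012 against 4526, 4454 and 3908, and at 120 h 9217, 9043 and 10015 against 6630, 6818 and 7485, log2 fold changes of 0.31 (adjusted p = 0.0048) and 0.43 (adjusted p = 7.8e-05). None of these 3 sets of counts overlapped between the clones, and the calls held without each replicate. At 0, 96 and 144 h the log2 fold changes were −0.02, −0.04 and 0.09 and were not called.

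Mycl differed late. At 48 and 72 h its log2 fold changes were 0.03 and 0.17 and were not called. At 96 h p53KO–emiRFP cells had 7786, 7424 and 7207 normalized counts and WT–emiRFP cells 5776, 6399 and 5901 (log2 fold change 0.31, standard error 0.05, adjusted p = 0.00077). At 120 h the counts were 5104, 4890 and 4395 against 2622, 2466 and 2445, and at 144 h 5415, 4999 and 4330 against 2154, 1735 and 1698. These are log2 fold changes of 0.93 (standard error 0.08, adjusted p = 4.3e-07) and 1.40 (standard error 0.12, adjusted p = 2.6e-07), with all p53KO–emiRFP libraries above all WT–emiRFP libraries. Both populations had less Mycl at 144 h than at the 96 h peak, and the decrease was smaller in p53KO–emiRFP cells.

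Mxd4 went from the member that was lowest relative to WT–emiRFP cells to the one that was highest. At 72 h p53KO–emiRFP cells had 344.3, 381.5 and 348.3 normalized counts and WT–emiRFP cells 782.7, 729.3 and 782.0, a log2 fold change of −1.09 (standard error 0.08, adjusted p = 1.3e-07). It was also lower at 48 h (−0.46, adjusted p = 0.0018) and 96 h (−0.48, adjusted p = 0.00015). At 120 h it was higher, with 1367, 1470 and 1557 against 1045, 912.0 and 1165 (log2 fold change 0.49, adjusted p = 0.00072), and at 144 h it had 2046, 1612 and 1858 against 702.5, 608.6 and 551.2, a log2 fold change of 1.57 (standard error 0.13, adjusted p = 1.7e-07). No pair of these groups overlapped, and the 5 calls remained without each replicate, with adjusted p up to 0.036. In p53KO–emiRFP cells Mxd4 thus rose through 144 h, while in WT–emiRFP cells it was highest at 96 h.

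The other members had log2 fold changes of at most 0.26 upwards and −0.36 downwards where called. Max was lower at 144 h, with 3185, 3180 and 3198 normalized counts against 3589, 3751 and 3818 (log2 fold change −0.22, adjusted p = 0.00075). Mga was lower at 144 h (−0.36, adjusted p = 0.0078) and at 120 h (−0.26, adjusted p = 0.044, but 0.12 without replicate 1 and 0.21 without replicate 2). Mxi1 was higher at 48 h by a log2 fold change of 0.26 (adjusted p = 0.011, but 0.084 and 0.083 without replicates 1 and 2) and at 72 h by 0.22 (adjusted p = 0.047, but 0.10 to 0.24 without a replicate). Mxd3 was lower at 144 h (−0.30, adjusted p = 0.027, but 0.26 and 0.11 without replicates 2 and 3). Mnt, with log2 fold changes between −0.13 and 0.09, and Mxd1, between −0.20 and 0.21, were called at no time in the main fits.

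With replicate number as a block, 8 more differences between these clones were called, where the block called 41.1%, 39%, 38.6% and 70.5% of all genes at 48, 72, 96 and 144 h. They were Mga (log2 fold change 0.25, adjusted p = 7.5e-06, and 0.00015 without the block or the filter on low counts) and Mxd3 (0.24, adjusted p = 0.0053) at 48 h, Max (0.12, adjusted p = 0.039) at 72 h, and Mxd1 (0.21, adjusted p = 0.035) at 144 h. At 96 h they were Max (−0.11, adjusted p = 0.012), Mnt (−0.13, adjusted p = 0.019), Mga (−0.13, adjusted p = 0.014) and Mxd3 (0.29, adjusted p = 0.0043).

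**Figure D3:**
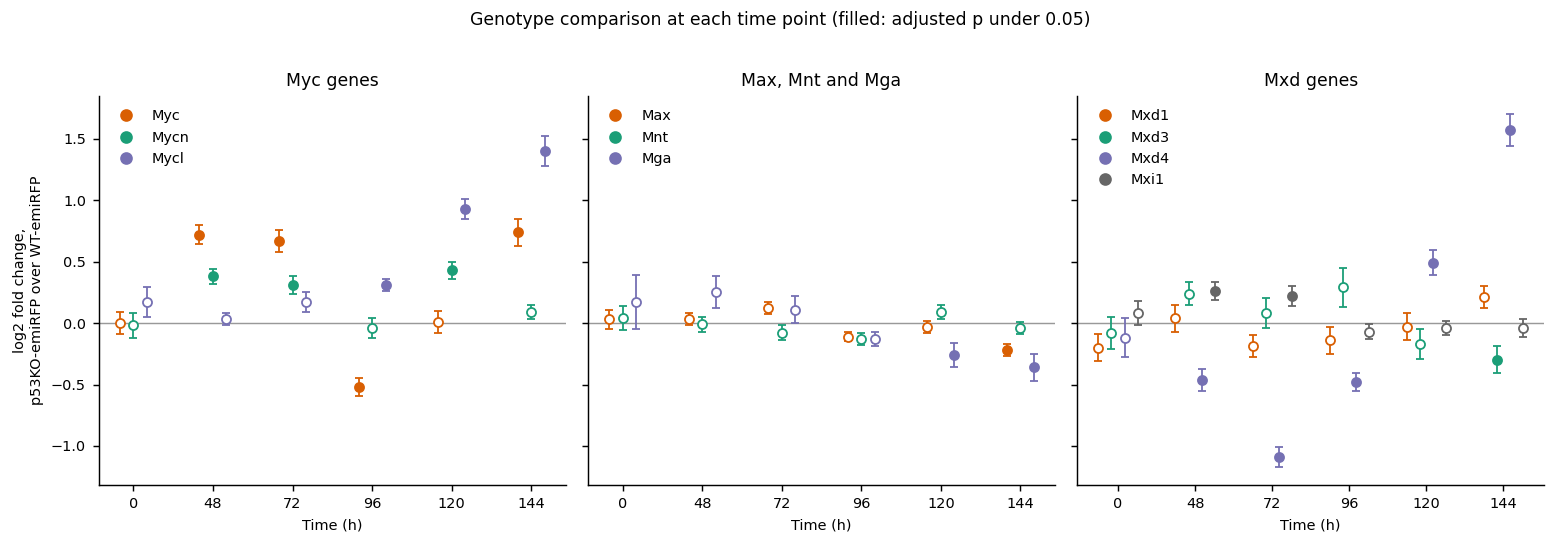
Log2 fold change of p53KO–emiRFP over WT–emiRFP cells (y axis, 0 is no difference) at each time in hours for the Myc genes, for Max, Mnt and Mga and for the Mxd genes, with bars of 1 standard error from 3 replicates per group. Filled points passed an adjusted p of 0.05. Myc went from 0.72 at 48 h to −0.52 at 96 h and 0.74 at 144 h, and Mxd4 from −1.09 at 72 h to 1.57 at 144 h, while Max and Mnt stayed within 0.22 of 0.

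Whether a step in time differed between the clones was tested as an interaction, in the fit of all 69 libraries. Of 10 members, 2, 1, 5, 5 and 5 differed at the steps to 48, 72, 96, 120 and 144 h, where 5.98%, 1.76%, 11%, 30.8% and 16.9% of all tested genes did. Myc and Mxd4 each differed at 4 of the 5 steps. The largest difference for Myc was at the step to 96 h, where the change of p53KO–emiRFP minus that of WT–emiRFP cells was −1.18 on the log2 scale (standard error 0.14, adjusted p = 8.5e-09). For Mxd4 it was at the step to 144 h, where it was 1.07 (standard error 0.15, adjusted p = 1.7e-07). Both calls held without each replicate. Over all members and steps 18 differences were called, and 8 to 11 without a replicate. Among those lost was Mxd4 at the step to 72 h (adjusted p = 0.14 to 0.27).

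Summed per kb of exon, the Myc genes of p53KO–emiRFP cells had a level of 6338 ± 387 at 48 h against 4763 ± 104 in WT–emiRFP cells (SD, n = 3 each). At 72 h the levels were 3499 ± 166 and 2669 ± 194, and at 144 h 3901 ± 275 and 2672 ± 94.3, and at 96 h they were alike, at 4923 ± 51.7 and 4918 ± 456 (SD, n = 3 each). Relative to Max, the summed Myc genes stood at 4.40 ± 0.319 per unit of Max in p53KO–emiRFP and 2.59 ± 0.156 in WT–emiRFP cells at 144 h, and at 3.12 ± 0.161 and 3.20 ± 0.0401 as mES cells (SD, n = 3 each). Relative to the 4 Mxd genes the summed level was 9.58 ± 0.517 and 6.78 ± 0.193 at 72 h (SD, n = 3 each). The ratios were 9.4 ± 0.33 and 7.29 ± 0.324 at 120 h, and 6.19 ± 0.503 and 5.17 ± 0.197 at 144 h (SD, n = 3 each). RNA levels say nothing of how much protein of each partner was present.

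The wild-type clones differed from each other too, which is the background for every comparison across clones. WT–mCherry against WT–emiRFP cells had 0 members called as mES cells by edgeR, with 1 at an unadjusted p under 0.05 and 0 by DESeq2, where 11.1% of all tested genes were called. In WT + WT gastruloids 2, 3, 1, 0 and 4 members were called at 48, 72, 96, 120 and 144 h, where 8.89%, 7.64%, 2.15%, 1.24% and 23.8% of all tested genes were. At 120 h, where 0 were called, 3 had an unadjusted p under 0.05, DESeq2 called 0 and the block called 2, Mycl (log2 fold change 0.23, adjusted p = 0.012) and Mga (−0.22, adjusted p = 0.018), where it called 10.8% of all genes. With the block 6 members were called at 48 h in place of 2, against 28.8% of all genes, the 4 added having log2 fold changes of 0.10 to 0.17.

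The members that differed most between the wild-type clones were again Mxd4, Mycl and Myc. Mxd4 was lower in WT–mCherry than in WT–emiRFP cells at 48, 72 and 96 h, with log2 fold changes of −0.34, −0.65 and −0.40, and higher at 144 h, with 1105, 916.3 and 1263 normalized counts against 702.5, 608.6 and 551.2 (log2 fold change 0.82, standard error 0.13, adjusted p = 0.00075). The calls at 72 and 144 h remained without each replicate, while those at 48 h (adjusted p = 0.071 to 0.26) and 96 h (0.12 and 0.17 without replicates 1 and 2) did not. Mycl was lower at 48 h (−0.28) and 72 h (−0.42), and higher at 144 h, with 3330, 3039 and 3088 against 2154, 1735 and 1698 (log2 fold change 0.76, adjusted p = 0.00072). The call at 48 h was lost without replicate 1 (adjusted p = 0.098), and that at 72 h without replicates 1 and 2 (0.16 and 0.15).

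Myc was alike in the wild-type clones from 0 to 120 h, with log2 fold changes between −0.09 and 0.19, none called. At 144 h WT–mCherry cells had 2419, 2094 and 2692 normalized counts and WT–emiRFP cells 1634, 1334 and 1474, a log2 fold change of 0.70 (standard error 0.11, adjusted p = 0.00071). The WT–emiRFP libraries at 144 h were low in Myc, Mycl and Mxd4 beside both p53KO–emiRFP cells and the other wild-type clone of the same gastruloids, and both comparisons share these libraries. The 4 neural markers moved with them, as all 4 were higher at 144 h in p53KO–emiRFP and in WT–mCherry than in WT–emiRFP cells. Their summed normalized counts were 2031 to 2652 in WT–emiRFP cells, 4011 to 4617 in WT–mCherry cells beside them, 5124 to 6905 in p53KO–emiRFP cells and 2622 to 3545 in WT–mCherry cells beside p53KO–emiRFP cells. Their part in the result was not tested. Mycn was higher in WT–mCherry cells at 72 h (log2 fold change 0.45, adjusted p = 0.0018), and Mga was lower at 144 h (−0.32, adjusted p = 0.041, but 0.078 to 0.13 without a replicate). As mES cells Mga had a log2 fold change of −0.09 (adjusted p = 0.84), which was −0.30 (adjusted p = 0.025) without replicate 1, the replicate with the low WT–emiRFP value.

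Side by side in the same WT + p53KO gastruloids, p53KO–emiRFP and WT–mCherry cells differ in genotype and in clone at once. Of 10 members, 4, 4, 5, 2 and 8 were called at 48, 72, 96, 120 and 144 h, where 25.3%, 31.4%, 23.6%, 39.5% and 64.2% of all tested genes were, and with the block 7 at 48 h and 5 at 120 h, against 43.6% and 53.8% of all genes. Myc was higher in p53KO–emiRFP cells at 48 h, with 3103, 3590 and 3322 normalized counts against 2132, 2412 and 2245 (log2 fold change 0.56, adjusted p = 7.3e-05), and at 72 h, with 3152, 3368 and 3092 against 1873, 2176 and 1961 (log2 fold change 0.68, adjusted p = 4.0e-05). At 96 and 120 h the log2 fold changes of Myc were −0.14 (adjusted p = 0.15, but 0.0074 with the block, which called 39.5% of all genes) and 0.01. At 144 h Myc was higher again (log2 fold change 0.92, standard error 0.11, adjusted p = 8.0e-06). In all 15 same-numbered comparisons of these populations the Mycl count was higher in p53KO–emiRFP cells, with log2 fold changes of 0.31, 0.54, 0.28, 0.56 and 1.14 at the 5 times, each called with and without each replicate.

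Mnt was the member that was lower in p53KO–emiRFP cells at nearly all times in these gastruloids. Its log2 fold change was −0.18 at 48 h (adjusted p = 0.043, but 0.26 and 0.13 without replicates 1 and 2), −0.27 at 72 h (adjusted p = 0.0037, but 0.096 without replicate 2), −0.32 at 96 h (adjusted p = 0.00068), −0.11 at 120 h and −0.27 at 144 h (adjusted p = 0.00053). At 96 h the counts were 2463, 2674 and 2416 against 3340, 3095 and 2964, with no overlap. Mxd4 was lower at 48, 72 and 96 h (−0.27, −0.53 and −0.26) and higher at 120 and 144 h (0.39 and 1.16). Those calls were lost without a replicate at 48 h (adjusted p = 0.079 to 0.25), at 96 h without replicates 1 and 2 (0.18 and 0.057) and at 120 h without replicate 1 (0.070). Mycn was higher at 144 h by 0.24 (adjusted p = 0.0030, but 0.084 without replicate 2).

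The smaller calls between these populations depended on single replicates. They were Max (−0.13) and Mga (−0.17) at 96 h, with adjusted p of 0.11 to 0.22 and 0.096 to 0.14 without a replicate, and at 144 h Mga (−0.32, 0.050 and 0.066 without replicates 1 and 2), Mxd1 (0.28, 0.18 and 0.057 without replicates 1 and 3) and Mxd3 (−0.27, 0.078 to 0.23). With the block, Mga, Mxd3 and Mxi1 at 48 h and Mycn, Mxd3 and Mxi1 at 120 h were also called, with log2 fold changes between −0.22 and 0.19.

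WT–mCherry cells beside p53KO–emiRFP cells were set against the same clone beside WT–emiRFP cells to ask whether the network of wild-type cells differed with the neighbour. By edgeR 0 members were called at 48, 72 and 120 h, 1 at 96 h and 3 at 144 h, against 0.0735%, 0.559%, 5.95%, 3.93% and 25.5% of all tested genes in that order of times. At 48, 72 and 120 h, 2, 1 and 2 members had an unadjusted p under 0.05 and DESeq2 called 0, 1 and 0. The members called were Myc at 96 h, and Myc, Mycl and Mxd4 at 144 h. All 4 differences were lower values beside p53KO–emiRFP cells.

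At 144 h WT–mCherry cells had 1492, 1117 and 1310 normalized counts of Myc beside p53KO–emiRFP cells and 2419, 2094 and 2692 beside WT–emiRFP cells. The groups did not overlap, and Myc was lower in each of the 3 same-numbered pairs, with a log2 fold change of −0.88 (standard error 0.11, adjusted p = 0.00021) that was called without each replicate (adjusted p up to 0.0089). At 96 h the counts were 1849, 1952 and 2055 against 2206, 2381 and 2559, a log2 fold change of −0.29 (standard error 0.07, adjusted p = 0.032). That call was lost without each replicate, with adjusted p of 0.060 to 0.36, and the log2 fold change then ranged from −0.30 to −0.27. At 48, 72 and 120 h the log2 fold changes of Myc were 0.07, −0.10 and −0.20 and were not called.

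Mycl at 144 h had 2693, 1937 and 2057 normalized counts beside p53KO–emiRFP cells and 3330, 3039 and 3088 beside WT–emiRFP cells, with no overlap and a log2 fold change of −0.50 (standard error 0.12, adjusted p = 0.0094). The call was lost without replicate 2 (adjusted p = 0.098) and replicate 3 (0.060). Mxd4 had 936.4, 753.9 and 775.6 against 1105, 916.3 and 1263, ranges that overlapped, and a log2 fold change of −0.41 (standard error 0.13, adjusted p = 0.034) that was lost without each replicate (adjusted p = 0.055 to 0.29) and with TMM scaling (0.051). Mycn at 144 h had a log2 fold change of 0.02. With the block, Mycn (0.19, adjusted p = 0.0019) and Mnt (0.14, adjusted p = 0.0099) at 48 h, Mycn (−0.27, adjusted p = 0.032) at 72 h, Mga (0.15, adjusted p = 0.014) and Mxd4 (0.18, adjusted p = 0.016) at 96 h, and Mnt (0.15, adjusted p = 0.035) and Mga (0.28, adjusted p = 0.0057) at 144 h were called too, where the block called 4.91%, 2.27%, 20.9% and 37.2% of all genes at these 4 times. The last pair was also called with TMM scaling (adjusted p = 0.026 and 0.046).

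RNA of emiRFP cells was detectable in the sorted WT–mCherry libraries and moved with the neighbour. The histone gene H2bc14 averaged under 10 normalized counts in WT–mCherry mES cells. It was taken to be counted from the H2B–emiRFP transgene, which was not tested. At 144 h it stood at 2.26% to 16.8% of its level in emiRFP cells in WT–mCherry libraries beside p53KO–emiRFP cells, and at 0.0919% to 2.01% beside WT–emiRFP cells. By a second histone gene, H2bc7, these shares were 1.5% to 11.4% and 0% to 1.58%. At 48 h the shares by H2bc14 were 0.208% to 0.278% and 0.416% to 0.641%. When that share of the neighbours' counts was subtracted, the log2 fold change of Myc at 144 h was −1.03 (adjusted p = 1.4e-05), that of Mycl −0.70 (adjusted p = 0.00019) and that of Mxd4 −0.64 (adjusted p = 0.0015), each further from 0 than before. Cell type markers differed as well. Summed over 5 caudal epiblast genes, WT–mCherry cells at 144 h had 2290 to 3065 normalized counts beside p53KO–emiRFP cells and 984.6 to 1177 beside WT–emiRFP cells, and over 4 neural genes 2622 to 3545 and 4011 to 4617.

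**Figure D4:**
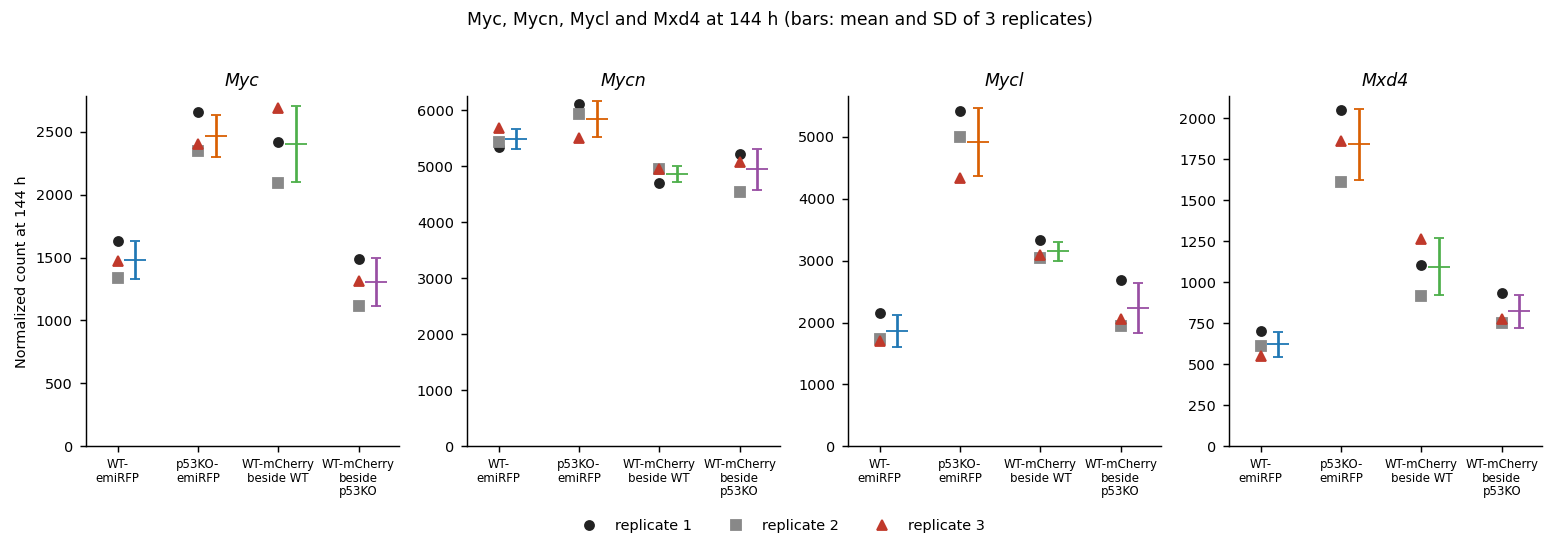
Normalized counts (y axis from 0) of Myc, Mycn, Mycl and Mxd4 at 144 h in the 4 sorted populations, with replicates 1 to 3 as separate symbols and the mean ± SD beside them. Myc counts of WT–emiRFP cells and of WT–mCherry cells beside p53KO (1117 to 1634) lay below those of the other two populations (2094 to 2692), while Mycn ranged from 4535 to 6117 over the 4 populations.

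The targets of the network were followed in a list of 30 genes known to be induced by Myc, which work in ribosome production, polyamine and nucleotide synthesis and the cell cycle. In p53KO–emiRFP against WT–emiRFP cells, 14 were higher and 0 lower at 48 h, with a median log2 fold change of 0.15 where that of all genes was 0.02. At 72 h 17 were higher and 2 lower, with medians of 0.24 and 0.01. Among them were Slc7a5, a transporter of large amino acids (log2 fold change 0.74, adjusted p = 3.9e-07), Odc1, which makes putrescine (0.46, adjusted p = 3.2e-06), and at 48 h Cdc25a, a phosphatase that activates CDKs (0.37, adjusted p = 8.0e-06). Ccnd2, a D-type cyclin, was lower at 72 h (−0.57, adjusted p = 0.0031). The counts called were above the 22% and 29.1% of all genes at these times. The wild-type clones differed in the list in the same direction, with 5 higher and 1 lower in WT–mCherry than in WT–emiRFP cells at 48 h (median 0.12) and 2 higher and 0 lower at 72 h (median 0.13), against 8.89% and 7.64% of all genes. Within WT + p53KO gastruloids 6 were higher and 3 lower in p53KO–emiRFP than in WT–mCherry cells at 48 h (median 0.05, where that of all genes was 0.02) and 12 higher and 3 lower at 72 h (0.12 and 0.02). In that comparison 25.3% and 31.4% of all tested genes were called at 48 and 72 h. With the block 24 of the 30 were called by genotype at 48 h, and 41.1% of all genes. Between the wild-type clones at 48 h the block called 26 of the 30, and 28.8% of all genes.

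By genotype at 96 h 2 were higher and 1 lower, where 23.3% of all tested genes were called. The block called 9 of the 30, and 38.6% of all genes. At 120 h 10 were higher and 8 lower, and at 144 h 6 were higher and 18 lower, with a median of −0.20 where that of all genes was 0.01. The shares of all tested genes called in either direction were 51% and 65.3% at these times. Within WT + p53KO gastruloids at 144 h, where 64.2% of all tested genes were called, 11 of the list were higher and 11 lower. The median there was −0.04 and that of all genes was 0.05. By genotype Ccnd2 was higher at 144 h (log2 fold change 2.02, standard error 0.16, adjusted p = 1.1e-07), while Srm, which makes spermidine, and Cad, which starts pyrimidine synthesis, were lower (−0.71 and −0.69, adjusted p = 1.5e-08 and 2.7e-08). As mES cells 0 of the 30 were called by edgeR or DESeq2, and 2 had an unadjusted p under 0.05.

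In WT–mCherry cells by neighbour at 144 h, 25.5% of all tested genes were called. Of the 30, 16 were lower and 0 higher, with a median of −0.15 where that of all genes was −0.03. Ccnd2 (log2 fold change −0.77, adjusted p = 0.0036), Odc1 (−0.42, adjusted p = 0.00026) and Hspd1, a mitochondrial chaperonin (−0.39, adjusted p = 0.0010), were the largest. At 96 h 1 was higher and 2 were lower, where 3.93% of all tested genes were called. With the block 15 were called, and 20.9% of all genes. In WT cells over time, 23 were higher and 5 lower at 48 h than at 0 h, where 70.3% of all genes were called, and 24, 22, 18 and 25 were lower at the 4 later steps, where 55.4% to 66.9% of all genes were called in either direction.

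**Figure D5:**
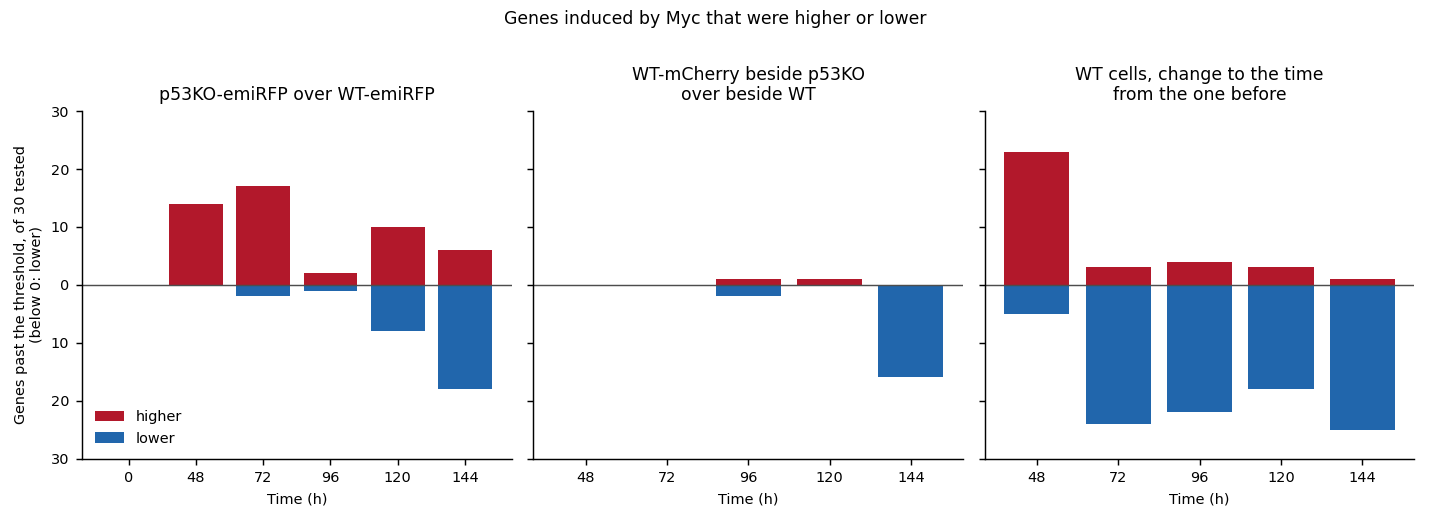
Number of the 30 genes induced by Myc that were higher (upward bars) or lower (downward bars) at an adjusted p under 0.05, by time in hours, for genotype, for the neighbour of WT–mCherry cells and for steps in time of WT cells. In p53KO–emiRFP cells 17 were higher at 72 h and 18 lower at 144 h, and in WT–mCherry cells beside p53KO 16 were lower at 144 h. In these 3 comparisons 29.1%, 65.3% and 25.5% of all tested genes were called in either direction.

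The list of 8 genes repressed through Myc and Zbtb17 holds Cdkn1a and Gadd45a, which are also direct targets of p53. In p53KO–emiRFP cells 5 were lower and 3 higher at 120 h and again at 144 h, where 51% and 65.3% of all tested genes were called. At 144 h the log2 fold change was −3.67 for Cdkn1a, a CDK inhibitor (standard error 0.12), −1.81 for Cdkn2b, another CDK inhibitor, and −1.70 for Gadd45a, a growth arrest gene. In WT–mCherry cells at 144 h, 3 were higher and 1 lower beside p53KO–emiRFP cells, with log2 fold changes of 1.09 for Ndrg2 and 0.74 for Ndrg1, which are higher in differentiated cells, and −0.66 for Cdkn1c, a CDK inhibitor (adjusted p = 0.0070, but 0.13 without replicate 3). By neighbour 25.5% of all tested genes were called at 144 h.

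Counts for cofactors of Myc and regulators of its protein are given beside a background of 22%, 29.1% and 65.3% of all genes called at 48, 72 and 144 h, and nothing is read from them. Of 12 Myc cofactors, 2 were higher at 48 h and 4 at 72 h in p53KO–emiRFP cells, and 0 were lower, with Ruvbl2 and Ruvbl1, ATPases of chromatin complexes, at log2 fold changes of 0.35 and 0.34 at 72 h. The block called 6 at 48 h, and 41.1% of all genes. At 144 h 2 were higher and 5 lower. Of 11 genes of Myc protein turnover, 5 were higher and 0 lower at 72 h, and 2 were higher and 5 lower at 144 h. Usp28, a deubiquitinase that stabilizes Myc, was lower at 144 h (−0.82, adjusted p = 3.9e-08), Gsk3b, the kinase that marks Myc for destruction, was higher by 0.64, and Skp2, a ubiquitin ligase subunit, was higher by 0.56. Of the 7 corepressor genes 3 were higher and 2 lower at 144 h, and of the 3 genes of the Mlx branch, a parallel network that senses glucose, Mlxip was higher (0.36) and Mlxipl and Mlx were lower (−1.24 and −0.34).

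The background for the next counts by genotype was 22%, 29.1%, 51% and 65.3% of all tested genes called at 48, 72, 120 and 144 h. Of the 13 partners of Mga in PRC1.6, 4 were higher and 0 lower at 48 h, and 7 were higher and 0 lower at 72 h in p53KO–emiRFP cells, led by Cbx1 (log2 fold change 0.42, adjusted p = 1.6e-05). At 144 h 6 were higher and 5 lower, with Yaf2 higher by 1.45, E2f6 by 0.95 and L3mbtl2 lower (−0.89, adjusted p = 2.5e-09). Of the 16 germline genes that PRC1.6 binds, 12 were lower and 1 higher at 120 h, and 14 were lower and 1 higher at 144 h, when the log2 fold change was −2.59 for Dazl, an RNA-binding protein of germ cells (standard error 0.12), and −2.57 for the meiotic gene Hormad1. Some of these germline genes are also expressed in primordial germ cells, whose 4 markers summed to 1840 to 1994 normalized counts in p53KO–emiRFP and 4983 to 5343 in WT–emiRFP cells at 144 h. In WT cells over time 15 of the 16 were lower at 72 h than at 48 h, and 15 were higher at 120 h than at 96 h. At these steps 66.9% and 56.8% of all tested genes were called in either direction. By neighbour at 144 h, 5 of the 16 germline genes of WT–mCherry cells were higher and 0 lower beside p53KO–emiRFP cells, while 5 of the 13 partners, 3 of the 12 cofactors and 2 of the 7 corepressors were lower and 0 of each higher. In that comparison 25.5% of all tested genes were called, and nothing is read from these counts.

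The genes most like Myc over the means of the 23 conditions, by Pearson correlation of log2 normalized counts among 14078 genes, were Ywhaq (0.87), Tfb2m (0.85), Pdhx (0.82), Gle1 (0.82) and Lmnb2 (0.81). Those most like Mycn were 2410002F23Rik (0.88), Bub3 (0.87), Ctps (0.87), Rbbp4 (0.86) and Mcm7 (0.86). Myc and Mycn correlated with each other at 0.42 and with Mycl at −0.34 and −0.24. The conditions share clones, times and libraries' makeup, and these are descriptions across 23 points.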

How the data were processed

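Bulk RNA was sequenced from 69 libraries, 3 replicates of 23 conditions, 9 libraries of mES cells and the rest of sorted gastruloid cells. The deposited values are raw counts of uniquely mapped reads per gene, which the authors made with Trim Galore (version 0.6.7) and STAR (version 2.7.11b) on GRCm38.p6. The strand setting of the counting is not given in the sources used here. Libraries held 26722541 to 72981570 counts. Counts were scaled by median-of-ratios size factors (0.484 to 1.3) over all 69 libraries and tested with edgeR (version 4.0.16, glmQLFit and glmQLFTest, R 4.3.3, limma 3.58.1) after filterByExpr, with Benjamini-Hochberg adjustment over all genes tested and a threshold of 0.05. Each time point was fitted on its 12 libraries, with 8 residual degrees of freedom (9 libraries and fewer degrees of freedom at 0 h), and steps in time on all 69. Tables and figures were made with Python (version 3.11.15). A permutation test of 3 against 3 cannot go below p = 0.1, so none was used. In simulated counts for the genotype comparison at 120 h, 92% of 200 genes changed 2-fold were recovered, and 5.64% of calls were false. Every simulated gene had the same dispersion and no replicate effect, so the outcome does not show how the calls behave in the real counts. Levels between genes were compared per kb of the union of exons.

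The main fits had no term for replicate number, so their adjusted p values do not use any pairing. Same-numbered replicates were regarded as pairs where every pair's correlation of deviations over 14106 genes was above 0.1. This held for all comparisons within a time point except the wild-type clones at 0 and 72 h and the neighbour comparison at 120 h, and the mean correlation was 0.196 to 0.421 by time. The alternatives were a replicate block, DESeq2 (version 1.42.0), TMM, no filter on low counts, only the compared groups, all 23 groups, each replicate left out and subtraction of emiRFP RNA.

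Members and gene lists were chosen with earlier results of these data known. The genes named were all 10 members, of each list up to 3 called genes with the largest change in a comparison, and the 5 genes most like Myc and Mycn over condition means among genes with a mean of at least 50 normalized counts. Promoters are RefSeq sequences of GRCm38.p6. Of the symbols in the table, 96.3% were found in the annotation. The genotype and wild-type clone comparisons share the WT–emiRFP libraries, and the neighbour and same-gastruloid comparisons share the WT–mCherry libraries beside p53KO–emiRFP cells.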

Additional observations from a re-analysis of the deposited data

Results flagged for a closer look

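The change between consecutive times differed between p53KO–emiRFP and WT–emiRFP cells for 18 combinations of member and step in the interaction test (edgeR's quasi-likelihood test, adjusted over all genes), and each value here is the log2 change of p53KO–emiRFP minus that of WT–emiRFP cells. At the step to 48 h it was 0.72 for Myc (adjusted p = 0.00032) and 0.41 for Mycn (adjusted p = 0.016, but 0.26 and 0.097 without replicates 2 and 3). At the step to 72 h it was −0.63 for Mxd4 (adjusted p = 0.026, but 0.14 to 0.27 without a replicate).

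At the step to 96 h, when Mycn and Mycl rose in WT cells, it was −1.18 for Myc (adjusted p = 8.5e-09) and 0.61 for Mxd4 (adjusted p = 0.0051, but 0.078 and 0.051 without replicates 1 and 3). Smaller values were −0.35 for Mycn (adjusted p = 0.027, but 0.25 and 0.14 without replicates 2 and 3), −0.23 for Max (adjusted p = 0.0079, but 0.074 to 0.12 without a replicate) and −0.29 for Mxi1 (adjusted p = 0.044, but 0.11 to 0.40 without a replicate).

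At the step to 120 h it was 0.53 for Myc (adjusted p = 0.0018), 0.48 for Mycn (adjusted p = 0.00053), 0.62 for Mycl (adjusted p = 0.00013) and 0.98 for Mxd4 (adjusted p = 4.7e-07), each called without each replicate, and −0.46 for Mxd3 (adjusted p = 0.046, but 0.078 to 0.19 without a replicate).

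At the step to 144 h it was 0.73 for Myc (adjusted p = 5.7e-05) and 1.07 for Mxd4 (adjusted p = 1.7e-07), both called without each replicate, and 0.47 for Mycl (adjusted p = 0.0082, but 0.14 and 0.059 without replicates 2 and 3). It was −0.34 for Mycn (adjusted p = 0.025, but 0.052 to 0.15 without a replicate) and −0.19 for Max (adjusted p = 0.024, but 0.059 to 0.27 without a replicate). With replicate number as a block Mnt at the step to 120 h was called too (0.22, adjusted p = 0.020).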

How the results depend on the processing

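No result changed direction among the called values under the alternatives run. With replicate number as a block, calls of members summed over times went from 4 to 13 by neighbour and from 10 to 17 between the wild-type clones, and those of all genes from 6909 to 16148 and from 10203 to 22690. For the wild-type clones at 0 and 72 h and the neighbour comparison at 120 h, not every same-numbered pair had a correlation above 0.1. The mean correlations there were 0.192, 0.194 and 0.424. At 120 h the block added Myc and Mycn to the calls by neighbour. The block gave 29 genotype calls against 21, 30 in the same gastruloid against 23, 37 steps in time against 36 and 19 differences of steps against 18. With only the compared groups in the fit, 4280 genes were called by neighbour. Leaving out 1 replicate left 17 to 20 genotype calls, 1 to 2 by neighbour, 6 to 8 between wild-type clones, 14 to 18 in the same gastruloid, 33 to 36 steps in time and 8 to 11 differences of steps of the members, and 25775 to 30704, 2668 to 4053, 4018 to 5584 and 21748 to 29378 genes by genotype, neighbour, clone and same gastruloid (34288 in all libraries) and 7671 to 9589 differences of steps (14045 in all libraries). These fits have fewer samples, with 4 residual degrees of freedom within a time point after 0 h. Of the 112 member calls, 29, 30 and 23 were lost without replicates 1, 2 and 3, while 10 were without the filter, 7 with TMM and 0 with DESeq2 or the block. Among the comparisons within a time point, 10 were lost with all 23 groups in the fit and 8 with only the compared groups. After subtraction of emiRFP RNA 6 members were called by neighbour, 11 between clones and 24 in the same gastruloid.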
